A study of Arabidopsis thaliana with 148 samples.

Results

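The genes described here are the 150 nuclear genes of Arabidopsis whose messages lost the most ribosome association, relative to their total amount, when seedlings were heated. They were taken from the 12304 genes, of 37898 nuclear genes counted, that had a mean of at least 5 CPM (counts scaled to a common library total) in unheated total mRNA, heated total mRNA and unheated ribosome-bound mRNA. For each gene the log2 ratio of heated to control CPM (group means, 1 CPM added) in total mRNA was subtracted from the same ratio in ribosome-bound mRNA, and this difference of heat effects was averaged over 8 times of day. The 150 lowest averages were kept, so all values of that time course are descriptions of how the genes were chosen and carry no test. The tests below use the separate recovery libraries and the last unheated time point, which took no part in the choice.

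The plants carried p35S:HF-RPL18, a tagged protein of the large ribosomal subunit driven by the 35S promoter, which is active in most but not all cells, so the ribosome-bound fraction reports on cells that use this promoter. Translating ribosome affinity purification (TRAP) pulls down the tagged ribosomes with the messages on them, and polyadenylated RNA was read from these pulldowns and from whole extracts. Seedlings grew at 22 °C for 10 days, with light for 12 h and darkness for 12 h in each cycle, were moved to constant light on day 11 and were sampled on day 13 after sowing. In the time course, plants were held at 37 °C for 1 h ending at ZT48, ZT51, ZT54, ZT57, ZT60, ZT63, ZT66 or ZT69 (hours of Zeitgeber time, the time scale set by the light cycles) or stayed at 22 °C, with a last unheated group at ZT72. In the recovery experiment, plants heated for the hour before ZT54 were collected at once (0 h) or after 1, 3 or 6 h back at 22 °C, each beside plants that stayed at 22 °C. All groups had 3 libraries except total mRNA controls at ZT57 and TRAP controls at ZT60, which had 2.

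As background, a message is translated only when ribosomes are loaded on it, mostly through scanning of a small subunit from the capped end to the start codon. Heat lowers initiation on many messages in plant cells, while messages of heat shock proteins keep being loaded. Total mRNA also holds messages that are in the nucleus, in granules or free in the cytosol, so a low TRAP share cannot be told apart between export, storage and initiation in these libraries. In seedling extracts a fall through fewer cells of a type and a fall through less RNA per cell cannot be told apart either.

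The bases around the start codon are shown for genes that carry the results, because this is where scanning subunits stop. Each line runs 5′ to 3′, read from RefSeq's TAIR10.1 sequence, with the base at position -3 and the stretch from the start codon to position +4 in capitals (the A of ATG is position 1).
AT5G67610 (chr5:26963608-26963634, minus strand): aacccacaaggaagaaaTcgATGGgtg
PHV (chr1:10800738-10800764, minus strand): tactgacctgtttggaaGatATGAtgg
ATHB-15 (chr1:19413955-19413981, minus strand): aagagttttgctgaggaGtaATGGcaa
AT1G21580 (chr1:7565649-7565675, minus strand): ggctaaaatccaaatcaGccATGGatt
CCA1 (chr2:19245985-19246011, plus strand): ttgtgtagaggagcttaGtgATGGaga
TOC1 (chr5:24675520-24675546, plus strand): gtttagttgttaatctgAtcATGGatt
AT2G23790 (chr2:10127449-10127475, minus strand): tttttcttgggagagcaAcaATGGcga
In 6 of these 7 messages a purine, A or G, stood at -3, and AT5G67610, with the lowest value of all, had a T there. The 7 are a selection and do not give the share among the selected genes. Of further genes with low averages whose lines are not shown, AT5G11350 and AT5G43920 had a C at -3. AT3G09360, AT4G19150, EMB2773 and AT3G57350, also not shown, had a purine. Over the 144 selected genes with at least 20 annotated bases before the start codon, 70.8% had a purine at -3 and 52.8% a G at +4, against 76.0% and 59.7% of 11688 genes past the CPM minimum. Both bases together were present in 36.1% of the selected genes and 43.2% of all, a description with no test.

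The 14 heat chaperones and factors summed to 116 to 120 CPM in total and 125 to 142 CPM in TRAP controls at 0 h, and to 86049 to 96219 and 132700 to 138280 CPM after heat, so every heated library of that time was far above every control. Control replicate 2 at 6 h held 5230 CPM in total and 6982 CPM in TRAP mRNA, against 129 to 152 CPM in the other 6 h controls, and TRAP control replicate 1 at 3 h had the lowest mean correlation with its group, 0.914. These 3 recovery libraries stood apart and were kept, with values without them given where they differ. In the time course, total control replicate 2 at ZT54 held 4769 CPM. TRAP control replicate 2 held 1539 CPM at ZT54, 1056 CPM at ZT57 and 1726 CPM at ZT69. Control replicate 1 at ZT48 held 934 CPM in total and 1049 CPM in TRAP mRNA. The medians over time course controls were 251 CPM in total and 207 CPM in TRAP mRNA. These libraries were kept in the choice of genes. All 3 markers of the green shoot were detected in all 148 libraries, and 3 to 5 of the 5 root markers. At 0 h root markers summed to 38.7 to 44.3 CPM in total controls and 21.2 to 27.9 CPM after heat, and to 37.3 to 48 and 17.9 to 20.6 CPM in TRAP. Shoot markers summed to 22317 to 23148 and 14902 to 17507 CPM in total mRNA and 27371 to 29917 and 20404 to 21678 CPM in TRAP. Both lists were lower after heat in both kinds of RNA, and their part in the results was not tested.

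The average that chose the genes ran from -2.54 in AT5G67610 to -1.13 at the edge, with a median of -1.285, against a median of -0.18 and an SD across genes of 0.30 in all 12304. The last 3 genes inside were AT2G32000 (-1.13), AT1G47570 (-1.13) and the sugar transporter family gene AT1G19450 (-1.13), and the first 3 outside were AT3G19080 (-1.12), AT3G09000 (-1.12) and OBE1 (-1.12), so the edge marks no gap. All 150 were below 0 at every one of the 8 times, as were 35.2% of all genes, and 73 of the 150 were below -1 at every time.

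**Figure D1:**
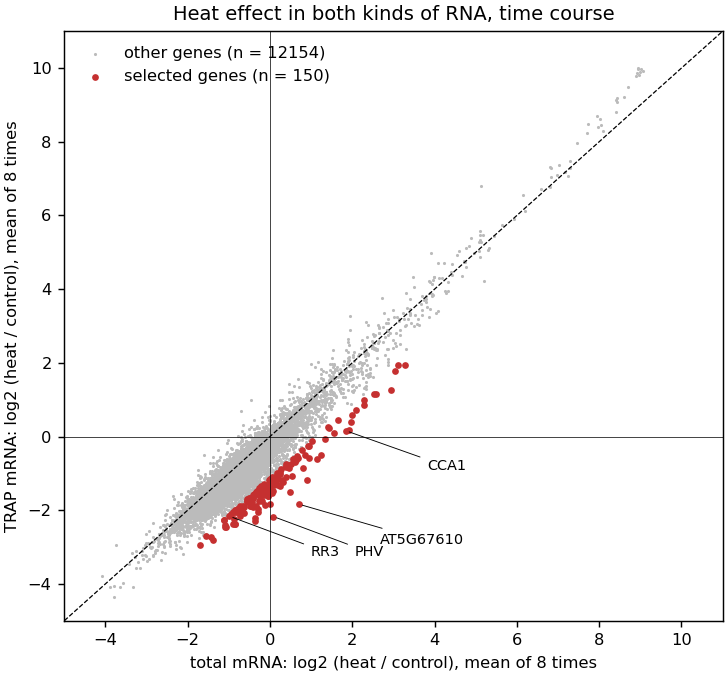
Heat effect in total mRNA (x axis) and in TRAP mRNA (y axis) of the time course, each as log2 of heated over control CPM averaged over 8 times, for the 150 selected genes (red) and the other genes past the CPM minimum (grey). The dashed line marks equal effects; the selected genes lie below it by at least 1.13 log2 units, which is how they were chosen, over a wide range of total mRNA effects.

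In CPM of the time course, the median effect of heat on total mRNA was -0.11 log2 units in the selected genes and -0.76 in all genes, and the median effect on TRAP mRNA was -1.47 against -0.97. The selected genes minus all genes gave 0.65 in total mRNA and -0.49 in TRAP mRNA. In 50 of the 150, or 33.3%, total mRNA was above and TRAP mRNA below the control on average, against 3.46% of all genes, while both were below in 83 and both above in 17. A mean change of at least 2-fold was upward in 21 and downward in 9 of the 150 in total mRNA (4.36% and 32.5% of all genes), and upward in 7 and downward in 109 in TRAP (3.79% and 47.9%).

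AT5G67610, which encodes a membrane protein of a family defined by the domain DUF2215, shows the pattern in single libraries. Its total mRNA ranged from 8.93 to 22.4 CPM in 23 control libraries (median 17.1) and from 17.2 to 43.7 CPM in 24 heated ones (median 28.7). Its TRAP mRNA ranged from 10.7 to 18.2 CPM in 23 controls (median 12.9) and from 2.16 to 5.51 CPM in 24 heated libraries (median 2.94). The TRAP groups did not overlap, and every heated TRAP library was below every control. This was so for 103 of the 150 genes, or 68.7%, against 48.6% of all genes past the CPM minimum, in the contrast that chose them. PHV, an HD-ZIP class III transcription factor that specifies the upper side of leaves, had almost the same total mRNA with and without heat, with medians of 32.7 and 31.0 CPM, and TRAP medians of 5.27 and 27.6 CPM.

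The difference was lowest at ZT54 to ZT60, from the middle to the end of the subjective day. The median over the selected genes was -1.48 at ZT57, -1.43 at ZT54 and -1.42 at ZT60, and -1.20 at both ZT51 and ZT69. The lowest of the 8 times was ZT57 for 44 genes, ZT60 for 36 and ZT54 for 25, and the highest was ZT69 for 42 and ZT66 for 28. ZT57 and ZT60 are the times with a control group of 2 libraries, and ZT54 had the total control with 4769 CPM of heat chaperones. Their part in this pattern was not tested. The median of all genes also moved, from -0.25 at ZT54 and -0.26 at ZT57 to -0.12 at ZT60 and -0.18 at ZT63. At ZT63, in the subjective night, the selected genes had a median of -1.39. The range over times was between 0.30 and 2.52 log2 units, with a median of 0.65 against 0.56 in all genes. RR3, a type-A response regulator of cytokinin signalling, had the widest range, from -0.29 at ZT51 to -2.81 at ZT60, and AT3G57350, a nucleoporin family gene, and AT1G57980, a sugar nucleotide transporter family gene, followed with ranges from -2.46 to -1.10 and from -1.81 to -0.58.

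In the recovery experiment, read at 3080248 to 8745785 counts per library, the genes showed a gap in the same direction at the end of heat. With edgeR's quasi-likelihood test over 21442 genes and Benjamini-Hochberg adjustment, the difference of heat effects at 0 h was lower than 0 (adjusted p below 0.05) in 107 of the 150 and higher in 0, against 350 lower (1.63%) and 76 higher (0.354%) among all genes tested. Without adjustment, 140 of the 150 were lower at p below 0.05 and 0 higher, against 7.77% and 4.29% of all genes tested. All 150 were tested and all had a negative estimate, from -2.51 to -0.17 with a median of -1.15, while the median of genes past the CPM minimum was -0.0041. The 107 made up 71.3% of the selected genes and 30.6% of the 350. Of the 350, 305 were among the 12281 tested genes past the CPM minimum. Leaving out 1 replicate number from every group lowered the count from 107 to between 64 and 71, depending on the number, and without the 3 libraries that stood apart it was 126. The background moved too. Of all genes, 103 to 166 were lower with a replicate number left out, and 622 of 21686 without the 3 libraries. Whether replicates were grown separately is not stated in the labels, and the p-values therefore describe library-to-library spread that may be technical.

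AT5G67610 again had the lowest value. Its total mRNA at 0 h was 16.1, 13.5 and 17.5 CPM in controls and 38.2, 35.7 and 42.4 CPM after heat, and its TRAP mRNA was 16.7, 14.1 and 12.8 CPM in controls and 5.77, 4.74 and 5.41 CPM after heat. The total libraries rose and the TRAP libraries fell with no overlap in either, a difference of -2.51 ± 0.24 log2 units (SE, adjusted p = 1.5e-09). PHV had 23.9, 20.5 and 31.5 CPM in control total mRNA and 38.2, 40.7 and 44.5 CPM in heated total mRNA. Its TRAP mRNA fell from 24.9, 26 and 29.6 CPM to 6.23, 7.36 and 8.05 CPM, and the difference was -2.36 ± 0.25 (SE, adjusted p = 2e-08).

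The other 3 of the 5 lowest at 0 h were AT3G57350 (-2.14 ± 0.29), EMB2773 (-2.06 ± 0.31), which encodes a PHD finger protein, and AT1G62310 (-1.96 ± 0.37), a jumonji domain gene, with adjusted p of 4.4e-06, 2e-05 and 0.00069. EMB2773 had 12.7, 12.7 and 13.7 CPM in control and 17.8, 18.7 and 20.7 CPM in heated total mRNA, against 18.1, 16.9 and 16.9 CPM and then 5.07, 4.61 and 5.67 CPM in TRAP. At the other end were AT1G47570 (-0.17 ± 0.26), CYP72A8 (-0.26 ± 0.38), NPR4 (-0.31 ± 0.30), AT1G57980 (-0.32 ± 0.36) and AT4G32920 (-0.37 ± 0.42), none of them called. CYP72A8, a cytochrome P450, went from 15.4, 12.7 and 6.15 CPM to 216, 232 and 176 CPM in total mRNA and from 23.9, 19.4 and 17.6 CPM to 246, 281 and 246 CPM in TRAP, so both kinds of RNA rose without overlap.

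**Figure D2:**
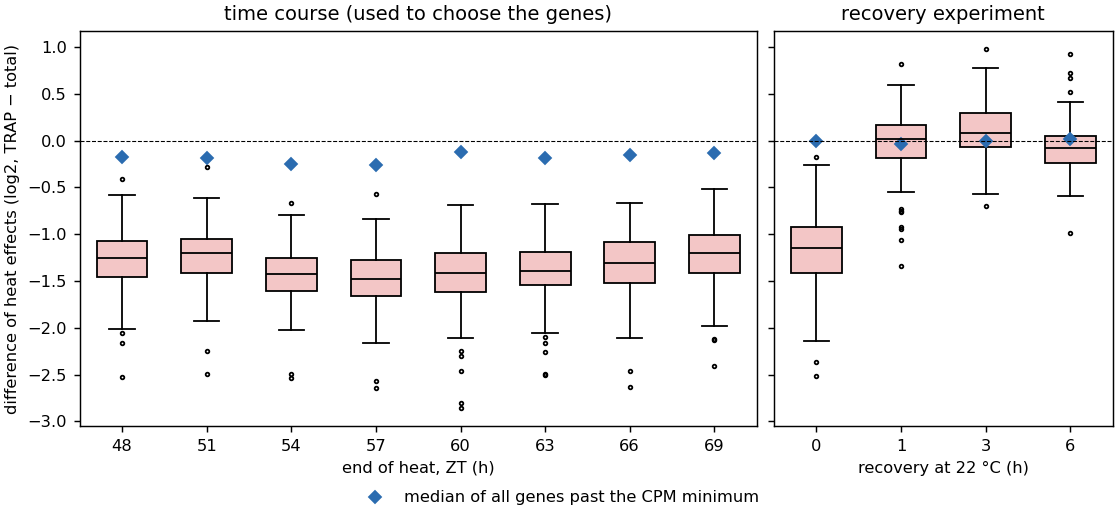
Difference of heat effects (log2, TRAP minus total; y axis) of the 150 selected genes at each of 8 times of the time course (left, CPM with 1 added) and at 4 times of the recovery experiment (right, edgeR estimates). Boxes span the quartiles around the median, whiskers reach the last gene within 1.5 box lengths, dots are genes beyond, and diamonds are the median of all genes past the CPM minimum; the selected genes are near -1.15 at 0 h and near 0 from 1 h on.

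In CPM, the separation between the kinds of RNA was visible without a model. After heat at 0 h, every TRAP library was below every total library for 136 of the 150 genes, against 44.5% of genes past the CPM minimum. In the unheated plants of the same time this was so for 37 of the 150, against 30.1%. After 1 h of recovery it was so for 27 in heated plants, against 23.7%, and for 31 in controls, against 29.3%. At 3 h the counts were 30 in heated plants and 22 in controls (28.2% and 18.8%), and at 6 h 41 and 22 (30.3% and 19.9%).

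Separate tests of each kind of RNA at 0 h gave values relative to the typical gene, since the scaling used (TMM) sets the bulk of genes near 0. In total mRNA, 126 of the 150 genes rose and 1 fell, against 22.9% and 23.2% of 20503 genes tested, with a median of 1.05 log2 units against 0.13 in genes past the CPM minimum. In TRAP mRNA, 37 rose and 49 fell, against 24.6% and 25.3% of 20504 genes, with a median of -0.22 against 0.13. Of the 126 that rose in total mRNA, 32 fell in TRAP, 37 rose in TRAP and 57 passed in neither direction. The gene that fell in total mRNA was TRM12, which fell by 0.72 there and by 1.61 in TRAP, and which is named after its values were seen.

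These directions depend on the scale. With plain CPM scaling the median heat effect over all genes was -0.77 in total and -0.92 in TRAP mRNA at 0 h. On that scale 62 of the 150 rose and 13 fell in total mRNA (7.32% and 63.6% of all genes), and 18 rose and 114 fell in TRAP (6.73% and 71.8%). In CPM, every heated total library was above every control in 82 of the 150 and below in 11, against 12.3% and 59.0% of genes past the CPM minimum. Every heated TRAP library was above every control in 18 and below in 115, against 9.31% and 77.9%. The share of selected genes with lower TRAP CPM, 76.7%, was thus near the background, while the share with higher total CPM was not.

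**Figure D3:**
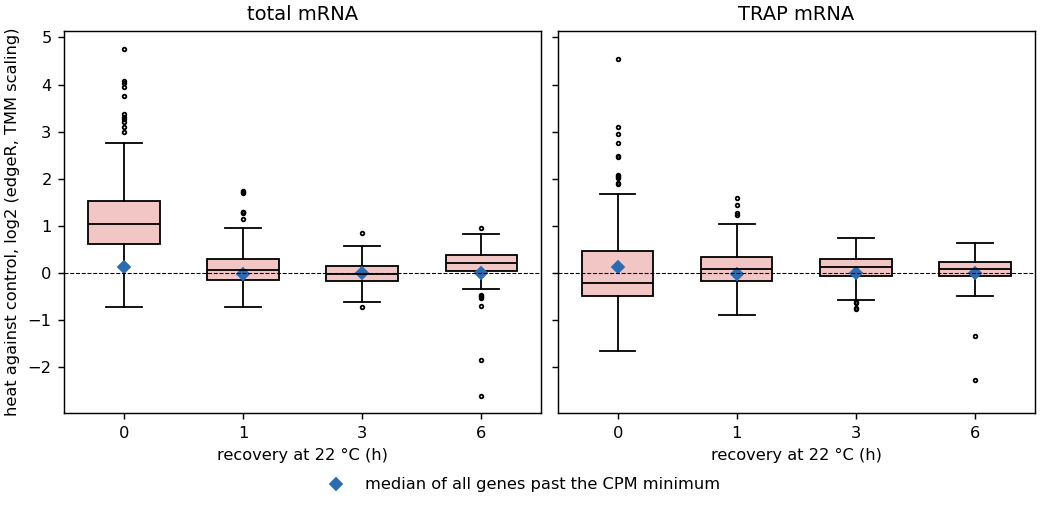
Heat against control (log2, edgeR with TMM scaling; y axis) of the 150 selected genes in total mRNA (left) and TRAP mRNA (right) at 0, 1, 3 and 6 h of recovery. Boxes span the quartiles, whiskers reach the last gene within 1.5 box lengths and diamonds are the median of all genes past the CPM minimum; at 0 h the total mRNA box lies above the diamond, while the TRAP median of -0.22 lies below a diamond that is inside the box.

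At 1 h back at 22 °C the gap was no longer called in any of the 150. The median difference was 0.01 at 1 h, 0.09 at 3 h and -0.08 at 6 h, and the quartiles were -0.19 and 0.17 at 1 h, -0.07 and 0.29 at 3 h, and -0.24 and 0.05 at 6 h. By edgeR, 0 of the 150 were called at each of the 3 times. The background was 1 higher (0.00466%) and 2 lower (0.00933%) at 1 h and 0 at 3 h and 6 h. At unadjusted p below 0.05, 4 were higher and 7 lower at 1 h (2.54% and 3.11% of all genes), 6 higher and 3 lower at 3 h (2.85% and 6.56%), and 3 higher and 2 lower at 6 h (1.33% and 1.52%). Without the 3 libraries that stood apart, the 3 h median was -0.01, with 0 higher and 1 lower at that unadjusted p. Of 21686 genes tested at 3 h, 776 then passed it and 407 of them were lower. At 6 h 3 were higher and 11 lower, with 1223 of all genes passing and 618 of them lower. DESeq2 called 1 at 1 h and 0 at 3 h and 6 h, and a block for libraries of one replicate number within time and treatment called 1 higher and 2 lower at 1 h. A p that misses the threshold does not show a difference of 0, but the estimate minus 2 SE stayed above -1 in 137 genes at 1 h, 144 at 3 h and 138 at 6 h, and in 5 at 0 h.

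The change itself was tested as the difference at a later time minus that at 0 h. It was positive and called in 41 of the 150 at 1 h, 69 at 3 h and 24 at 6 h, and negative in 0 at each, against 0.387%, 0.695% and 0.187% of all genes called higher and 0.0839%, 0.117% and 0.0373% called lower. The 3 tests share the 0 h libraries, and 75 genes were called in at least 1 of them and 16 in all 3. The median change was 1.13, 1.28 and 1.07 log2 units. Leaving out a replicate number reduced the counts to between 8 and 15 at 1 h, between 4 and 12 at 3 h and between 3 and 7 at 6 h. Of all genes, 10 to 22, 4 to 25 and 3 to 9 were then higher. Without the 3 recovery libraries that stood apart the counts among the 150 were 77, 73 and 40, and with CPM scaling the count at 3 h was 14. Without those libraries 235, 179 and 93 of all genes were higher and 106, 51 and 23 lower. With the replicate block within time and treatment the counts among the 150 were 82, 99 and 54. That block called 283, 492 and 124 of all genes higher and 192, 294 and 33 lower. The labels do not say whether replicate numbers mark pairs, and the main fit leaves any pairing out of account.

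Among the 150, the largest changes to 1 h were in AT5G67610 (2.86 ± 0.34), AT3G49645 (2.50 ± 0.36), annotated as a FAD-binding protein, PHV (2.46 ± 0.36) and AT1G21580 (2.19 ± 0.39), with adjusted p of 1.3e-06, 4.3e-05, 4.3e-05 and 0.0018. AT5G67610 had 21.7, 21.9 and 20.2 CPM in heated TRAP at 1 h, above its controls at 12.7, 12.2 and 16.6 CPM, while its total mRNA had come back to 18, 11.5 and 21.8 CPM beside controls at 14.2, 21.1 and 13.1 CPM. PHV had 27.3, 26.9 and 26.8 CPM in heated TRAP at 1 h, beside controls at 25.5, 26.1 and 20.9 CPM. AT1G21580, a zinc finger gene of the CCCH type, had 12.3, 12.2 and 16.4 CPM in heated TRAP at 0 h and 63.3, 60.4 and 58.9 CPM at 1 h, above all 3 controls at 44.9, 43.4 and 33.0 CPM.

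**Figure D4:**
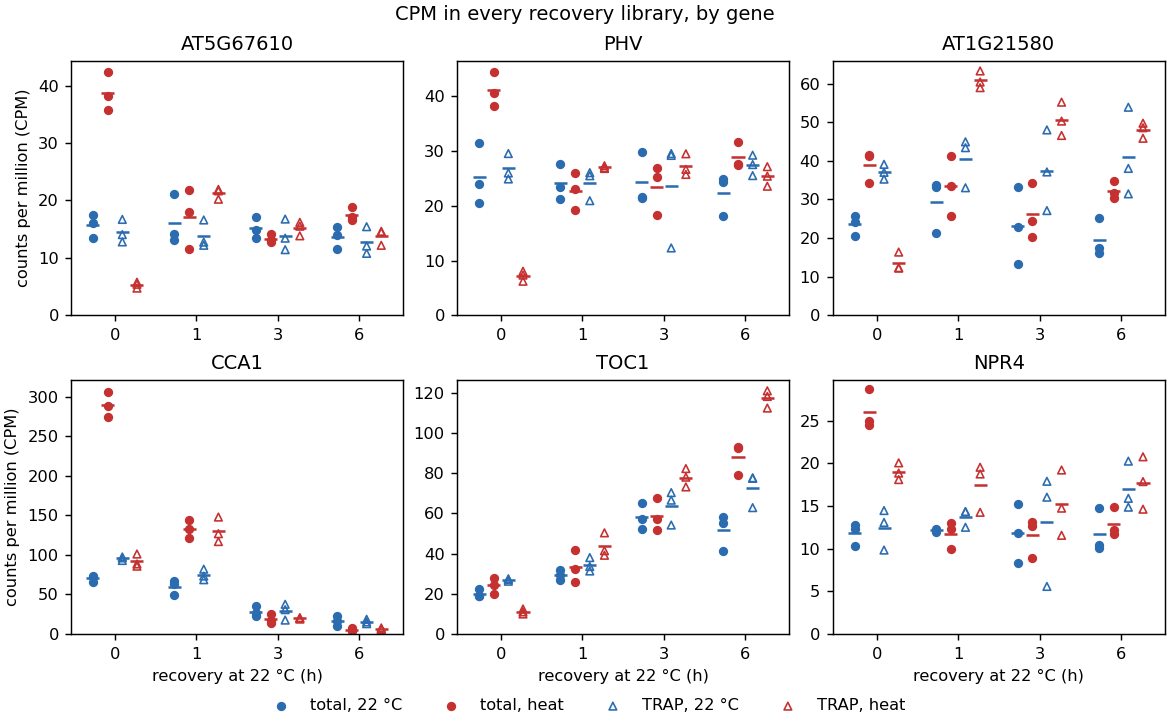
CPM (y axis) of 6 selected genes in every recovery library at 0, 1, 3 and 6 h (x axis), for total mRNA (filled circles) and TRAP mRNA (open triangles) of plants at 22 °C (blue) and heated plants (red); short lines are means of 3 libraries. AT5G67610, PHV, AT1G21580, CCA1 and TOC1 show a gap between red circles and red triangles at 0 h that is closed at 1 h. At 1 h the red triangles of PHV and AT1G21580 all lie above the red circles. In NPR4 the gap at 0 h is small.

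At the other end, RR3, ATX1, AT4G13550 and AT1G57980 had the smallest changes to 1 h, none of them called, and the sign of the change in RR3, ATX1 and AT1G57980 turned under some alternatives. RR3 had 28.5, 37.1 and 31.0 CPM in control and 9.11, 7.60 and 10.3 CPM in heated TRAP at 0 h, then 26.6, 24.9 and 29.2 CPM at 1 h, while its heated total mRNA went from 121, 89.3 and 114 CPM to 289, 247 and 146 CPM. Both kinds of RNA of RR3 were thus higher at 1 h than at 0 h in heated plants, without overlap. The bHLH gene AT4G29930 had a difference of -1.74 ± 0.29 at 0 h (adjusted p = 0.00014) and of -1.34 ± 0.31 at 1 h (adjusted p = 0.18), and it was the gene called by DESeq2 at 1 h. Its total mRNA was still 54.7, 47.4 and 60.1 CPM in heated plants at 1 h against 39.9, 31.5 and 28.1 CPM in controls, with TRAP at 11.8, 11.7 and 14.1 CPM against 17.8, 19.5 and 15.5 CPM.

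Within each kind of RNA, fewer of the genes were called at the later times than at 0 h. In total mRNA, 19 of the 150 were higher and 5 lower at 1 h (9.78% and 9.64% of all genes), and in TRAP 28 and 12 (12.0% and 12.6%). At 3 h total mRNA had 0 calls in either direction (0.502% and 0.615%), with 5 higher and 7 lower at unadjusted p below 0.05 (5.31% and 5.71%) and 1 higher by DESeq2, and TRAP had 6 higher and 3 lower (2.25% and 4.21%). At 6 h there were 7 and 2 in total mRNA (2.28% and 4.04%) and 3 and 2 in TRAP (2.02% and 3.37%). Without the 3 libraries that stood apart, of which 2 are 6 h controls, these were 21 and 4 in total mRNA (4.98% and 7.48%) and 31 and 7 in TRAP (9.49% and 11.6%), with 20 lower in TRAP at 1 h (19.0%) and 3 higher at 3 h (2.06%).

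The genes are described below by lists drawn from words in the annotated product, so a list holds what its words match, and SIZ1, AT2G46420 and AT1G62310 stand in more than 1 list. Most lists were planned by name, without their exact words. Words set later include early activation, which matched TOE2, and uniporter, which matched AT2G23790, so the shares are descriptions. Over all genes past the CPM minimum, 1.22% were selected. Genes with transcription factor words made up 16 of the 150, out of 636 past the minimum (2.52%), and they include the response regulator RR3, the SUMO ligase SIZ1 and a helicase. At 0 h, 11 of the 16 were called lower in the difference, much as 71.3% of the 150 were, and with TMM scaling 13 rose in total mRNA, 8 fell in TRAP and 5 rose in TRAP. The HD-ZIP class III genes, which pattern leaves and vascular tissue and are under microRNA control, differed among themselves. PHV was second of all genes in the time course, and ATHB-15 had an average of -1.42 there and a difference of -1.32 ± 0.23 at 0 h of recovery (adjusted p = 0.00018). REV (-1.08) and PHB (-0.83) were outside the 150 and had -0.85 ± 0.28 and -0.70 ± 0.27 at 0 h, neither called (adjusted p = 0.12 and 0.21), and HB-8 had -0.19 and 0.22 ± 0.30. These family members, and CCA1, TOC1, LHY, ARF6, TOE2, THO5, EFS, CMT2, PC-MYB1, MYB3R-3, NPR1, NPR3, TOR, RAPTOR1, RAPTOR2, LST8-1, AT4G17140, AT3G49840, AT1G76880 and AT5G57150 below, were chosen after their values were seen, and differences between paralogs were not tested.

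Of the clock genes, CCA1 encodes a morning repressor and TOC1 an evening one. CCA1 had 73.0, 71.9 and 65.3 CPM in control and 274, 288 and 306 CPM in heated total mRNA at 0 h, with TRAP at 97.3, 92.9 and 96.1 CPM and then 101, 88.5 and 85.7 CPM. Its total mRNA rose, and its TRAP CPM overlapped between heated and control plants although it was 0.82 log2 units higher after heat with TMM scaling, a difference of -1.86 ± 0.25 (adjusted p = 5e-06). Its change from 0 h was 1.37 at 1 h (adjusted p = 0.066), 1.99 at 3 h (adjusted p = 0.0068) and 2.38 at 6 h (adjusted p = 0.0067). TOC1 had 18.9, 22.3 and 18.7 CPM in control and 24.5, 20 and 27.9 CPM in heated total mRNA, which overlapped although total mRNA was 0.87 log2 units higher with TMM scaling, and its TRAP mRNA fell from 27.4, 26.2 and 27.1 CPM to 9.92, 11.0 and 12.4 CPM, a difference of -1.31 ± 0.20 (adjusted p = 3.3e-05). The average over the time course was -1.69 in CCA1 and -1.20 in TOC1, and -0.15 in LHY, the close relative of CCA1, which had -0.48 ± 0.48 at 0 h. Further members were ARF6, an auxin response factor (-1.41 ± 0.21 at 0 h, adjusted p = 2e-05), TOE2, an AP2-type repressor of flowering (-1.0 ± 0.22, adjusted p = 0.0051), and the cell cycle regulators PC-MYB1 (-1.03 ± 0.34) and MYB3R-3 (-0.91 ± 0.32), which were not called (adjusted p = 0.10 and 0.13).

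RNA-binding and RNA-processing proteins gave 13 of the 150 out of 342 (3.80%), and chromatin and DNA proteins 12 out of 138 (8.70%). Both lists were drawn up after the members had been seen. At 0 h, 7 of the 13 and 8 of the 12 were called lower. CPSF100, a subunit of the complex that cleaves messages before poly(A) addition, had total mRNA of 9.46, 10.3 and 12.1 CPM in control and 16.4, 14.4 and 16.4 CPM in heated plants, with TRAP at 12.8, 10.4 and 14 CPM and then 4.61, 5.98 and 6.60 CPM (difference -1.46 ± 0.25, adjusted p = 0.00016). THO5, a subunit of the THO complex for message export, had -1.5 ± 0.22 (adjusted p = 2e-05). The histone methyltransferase gene EFS had -1.22 ± 0.29 (adjusted p = 0.012), and ATX1, a trithorax homolog, -0.51 ± 0.37 (adjusted p = 0.64). CMT2, a DNA methyltransferase, had -0.85 ± 0.29 (adjusted p = 0.14).

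F-box and ligase genes, SIZ1 among them, gave 9 of 327 (2.75%), with 5 called lower at 0 h. CUL3, the scaffold of a class of ubiquitin ligases, had -0.88 ± 0.19 (adjusted p = 0.0047), UPL7 -1.24 ± 0.35 (adjusted p = 0.049) and the RING gene AT3G48070 -0.73 ± 0.22 (adjusted p = 0.062). Other genes of ubiquitin turnover outside this list were among the 150 and are named after their values were seen. UBP5, a ubiquitin protease, had -0.80 ± 0.25 (adjusted p = 0.086), the proteasome subunit RPT5B -0.76 ± 0.23 (adjusted p = 0.072) and BRCC36B -1.57 ± 0.24 (adjusted p = 2.8e-05). NPR3 and NPR4, receptors of salicylic acid that work with CUL3, had averages of -1.29 and -1.19 in the time course and -0.85 ± 0.26 (adjusted p = 0.070) and -0.31 ± 0.30 (adjusted p = 0.78) at 0 h, and their relative NPR1 had -0.22 and -0.33 ± 0.26. In NPR4, total mRNA rose from 10.4, 12.3 and 12.8 CPM to 28.7, 25 and 24.5 CPM and TRAP from 13.1, 9.84 and 14.5 CPM to 18.1, 20.1 and 18.9 CPM. TOR, the growth-controlling kinase, and RAPTOR2, one of its partners, were both among the 150, at -0.96 ± 0.28 (adjusted p = 0.055) and -1.77 ± 0.41 (adjusted p = 0.0074) at 0 h, while RAPTOR1 (-0.15 ± 0.26) and LST8-1 (-0.42 ± 0.17) were not.

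Transporters and channels gave 9 of 372 (2.42%), with 3 called lower at 0 h. AT2G23790, a mitochondrial calcium uniporter family gene, had 25.4, 34 and 25.6 CPM in control and 120, 106 and 111 CPM in heated total mRNA, while TRAP had 12.7, 14.6 and 17.9 CPM and 13.8, 12.3 and 14.9 CPM, which overlapped in CPM and were 0.73 log2 units higher after heat with TMM scaling (difference -1.90 ± 0.21, adjusted p = 2.9e-08). BOR1, a borate exporter, had -0.92 ± 0.31 (adjusted p = 0.13). Protein kinases gave 5 of 371 (1.35%), near the share of all genes, with 3 called lower, among them the leucine-rich repeat kinase gene AT2G37050 at -1.08 ± 0.22 (adjusted p = 0.0016). Cell cycle and cytoskeleton genes gave 4 of 156 (2.56%), with 3 called lower, led by AT3G09360 at -1.67 ± 0.25 (adjusted p = 2e-05), which encodes a cyclin fold protein like the Brf1 subunit of a polymerase III factor. The words microtubule, myosin and actin were added to the planned cyclin, kinesin and tubulin. The selected genes of this list other than AT3G09360 matched only added words, so its share is not independent of the choice of words.

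None of the 150 came from 262 listed ribosomal protein genes of the cytosol, whose averages had a median of -0.23. The lists of 18 SR splicing factors (median average 0.12), 22 antenna and Rubisco genes (-0.11), 16 translation factors (-0.08), 15 stress granule and decay proteins (-0.26), 37 histones (-0.04) and 44 peroxidases (-0.03) also had 0 members, but at a share of 1.22% lists of this size are too short to read a 0. VCR, a relative of the decapping scaffold varicose, is among the 150 outside the decay list, at -1.04 ± 0.38 at 0 h (adjusted p = 0.17), and is named after its values were seen. The 13 listed heat chaperones and heat factors past the minimum had a median average of 0.74, on the other side of 0.

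Chaperone family genes outside that list were among the 150 and are named after their values were seen. AT1G11660, of the Hsp70 family, rose in both kinds of RNA at 0 h, by 4.07 log2 units in total and 3.10 in TRAP mRNA (difference -1.01 ± 0.23, adjusted p = 0.0057). RTM2, with a small heat shock protein domain, rose by 2.34 and 1.24 (difference -1.13 ± 0.24, adjusted p = 0.0034), and GFA2, of the DnaJ family, by 2.98 and 2.49 (difference -0.52 ± 0.19, adjusted p = 0.18). AT4G36520, with a DnaJ domain, had 0.51 in total mRNA, which was not called, and fell by 0.90 in TRAP (difference -1.44 ± 0.45, adjusted p = 0.093).

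The messages of the selected genes had more exons than most. In RefSeq's TAIR10.1 annotation, 147 of the 150 are protein coding, with a median of 11 exons against 6 in 11974 coding genes past the CPM minimum. At least 10 exons were annotated in 59.2% of them against 24.8%, and a single exon in 2.72% against 8.65%. Coding sequences had a median of 1833 bases against 1125, introns summed to 1312 bases against 799, and 5′ UTRs had 255 bases against 198, while 3′ UTRs had 270 against 279. An ATG upstream of the start codon was present in 71.2% against 62.6%. AT4G17140 had 66 exons and TOR 56, and AT4G19150, with the sixth lowest average, had 2.

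The share of genes that were selected rose with exon number, from 0.386% of genes with 1 exon to 4.04% of genes with 16 or more. Coding length differed too, so genes were split into 3 classes of about equal size by coding length. In the longest class, 76 of 2003 genes with 10 or more exons were selected (3.79%) and 24 of 1965 with fewer (1.22%), and in the middle class 11 of 893 (1.23%) and 20 of 3107 (0.644%). In the shortest class, 0 of 76 genes with 10 or more exons were selected, too few genes to set beside the 16 of 3930 with fewer. The recovery libraries gave a measure the choice did not use. Among genes outside the 150, the median difference at 0 h went from 0.10 at 1 exon to -0.06 at 11 to 15 exons and -0.21 at 16 or more, and 41 of 831 such genes with 16 or more exons (4.93%) were called lower against 5 of 1031 with 1 (0.485%). Spearman's rho across 11956 genes between exon number and the difference at 0 h was -0.21, given as a description because genes of one library share its depth and are not independent.

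**Figure D5:**
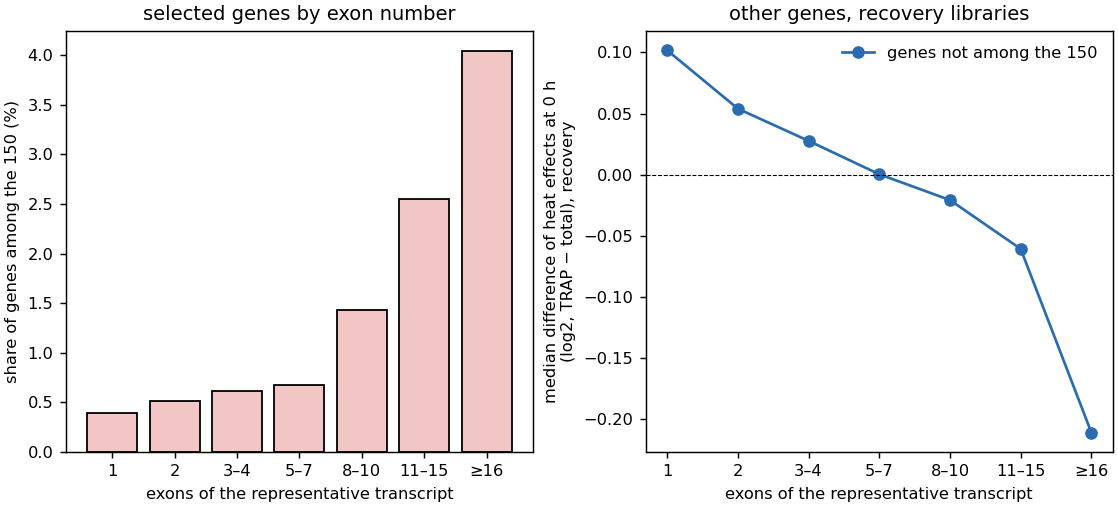
Left, the percentage of coding genes past the CPM minimum that are among the 150, by number of exons. Right, the median difference of heat effects at 0 h of recovery (log2, TRAP minus total) of genes outside the 150 in the same exon classes, which goes from 0.10 at 1 exon to -0.21 at 16 or more.

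The 3 selected genes not annotated as coding overlap other genes. AT1G76878 lies opposite AT1G76880 and AT5G09155 opposite NPX1, both of them selected too, and AT4G07190 overlaps AT4G23890. AT1G76878 and AT1G76880 had almost the same values at 0 h, -1.27 ± 0.22 and -1.32 ± 0.23 (adjusted p = 0.00023 and 0.00018). Whether counting used strand is unstated in the labels and notes, and reads of such pairs cannot be told apart. AT5G57150 and AT5G57160 overlap by 102 bases, and in all 42 of the 150 overlap another annotated gene (28.0%, against 36.3% of all genes past the minimum). AT5G67610 has a paralog among the 150, AT3G49840, at -1.06 ± 0.31 at 0 h (adjusted p = 0.058), and reads shared by near-identical copies may be divided between them.

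In unheated plants the selected genes were on both sides of the total level in TRAP mRNA. In the recovery controls, 80 of the 150 were higher and 31 lower in TRAP than in total mRNA (36.7% and 34.1% of all genes tested). Their median was 0.26 log2 units against 0.14 in genes past the CPM minimum. At ZT72, 37 were higher and 18 lower (16.9% and 19.4%), with medians of 0.17 and 0.10. Past the CPM minimum, 3425 of 12281 genes were lower in the recovery controls and 1969 of 12304 at ZT72. With CPM scaling, which moved the median of all genes to 0.37 and 0.40, the counts were 113 and 14 in the recovery controls and 98 and 7 at ZT72. RR3 had the lowest value in the recovery controls, -2.67, and AT4G02715 the highest, 1.34, both picked out after their values were seen. The median level in control total mRNA of the time course was 23.7 CPM, against 30.8 CPM in all genes past the minimum.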

How the data were processed

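Gene counts were used as the authors deposited them, whole numbers per gene for 148 libraries in a time course table (100 libraries, 1396305 to 13706459 counts each) and a recovery table (48 libraries). Per the submitters' processing notes, reads went through cutadapt and FastQC and were aligned with HISAT2 2.2.0 to TAIR10; for the counting tool, annotation and strand handling: not given in the sources used here. Organelle genes were left out of CPM and kept in the fits.

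The members and gene lists were chosen with earlier results of these data known. Recovery and ZT72 counts were tested with edgeR 4.0.16 (R 4.3.3), quasi-likelihood, TMM scaling, genes with at least 10 counts in enough libraries, and Benjamini-Hochberg adjustment over all genes tested. The difference of heat effects is an interaction term of 1 fit over all 48 recovery libraries, and single RNAs were fitted over 24 libraries each. Scripts were tested on simulated data. DESeq2 1.42.0, other scalings and filters, a replicate block and left-out replicates were alternatives. Counting error is only part of the spread, which the model estimates from replicates. No 2 libraries had identical columns.

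Genes were named by rule: the 10 lowest averages, the 5 lowest and 5 highest differences at 0 h, the 4 largest and 4 smallest changes to 1 h, up to 3 members per list, the 3 genes on each side of the edge and the 3 widest ranges over times. Others are named as chosen after their values were seen. Sequences and gene models are from RefSeq's TAIR10.1, matched by gene identifier for all 150.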

Additional observations from a re-analysis of the deposited data

Results flagged for a closer look

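The difference of heat effects changed between recovery times, by an interaction test of each later time against 0 h (edgeR's quasi-likelihood test with Benjamini-Hochberg adjustment). It was higher than at 0 h in 41 of the 150 genes at 1 h, in 69 at 3 h and in 24 at 6 h. Of all genes tested, 0.387%, 0.695% and 0.187% were higher. With 2 libraries per group, after a replicate number was left out, far fewer of the 150 were called, as given below. The 3 counts of the 150 share the 0 h libraries.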

How the results depend on the processing

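The count of 107 genes called lower at 0 h was 100 to 131 under the other scalings, tools and fits, and 64 to 71 when a replicate number was left out, which leaves 2 libraries per group. Of all genes, 271 of 21442 were lower with RLE scaling, which gave the 100. In the fit of 4 groups only, which gave the 131, 574 of 20275 were lower. With a replicate left out 103 to 166 of all genes were lower, against 350 in the main fit. The 0 at 1 h became 1 with DESeq2, 1 in a fit of 4 groups only, 1 without the 3 libraries that stood apart and 2, beside 1 called higher, with a replicate block within time and treatment. With a replicate left out, genes of the 150 called higher than at 0 h numbered 8 to 15 at 1 h, 4 to 12 at 3 h and 3 to 7 at 6 h. Over all genes the numbers were 10 to 22, 4 to 25 and 3 to 9. Without the 3 libraries, genes of the 150 numbered 77 at 1 h and 40 at 6 h (235 and 93 over all genes), and with CPM scaling 14 at 3 h. For total mRNA, leaving out a replicate gave 0 to 2 lower at 0 h, 12 to 16 higher and 0 to 11 lower at 1 h, 0 to 1 lower at 3 h, and 0 to 14 higher and 1 to 2 lower at 6 h. For TRAP it gave 14 to 19 higher and 4 to 8 lower at 1 h, 0 to 7 higher and 0 to 2 lower at 3 h, and 0 to 6 higher and 0 to 2 lower at 6 h, and at ZT72 23 to 35 genes were higher in TRAP. Without the 3 libraries, total mRNA had 1 higher and 1 lower at 3 h and 21 and 4 at 6 h, and TRAP had 20 lower at 1 h, 3 higher at 3 h, and 31 and 7 at 6 h. At 3 h total mRNA had 1 higher with RLE scaling, with no filter on low counts and with DESeq2, and 3 with CPM scaling. CPM scaling gave 62 higher and 13 lower in total and 18 higher and 114 lower in TRAP at 0 h, 14 lower in TRAP than total in recovery controls, and 98 higher and 7 lower at ZT72. The cause of these shifts was not tested. Samples with the same replicate number deviated together with correlations of 0.024 to 0.741 over 24 pairs, not all above 0.1. Each library correlated best with its own number in 24 of 24. The labels do not say what a number marks, so the main fits take no pairs and leave any pairing out of account. With a replicate block the counts were 111 at 0 h and 43, 69 and 26 for the changes, and with a block within time and treatment 130, 82, 99 and 54. Of 21442 genes tested, the replicate block called 365 lower at 0 h and 84, 153 and 40 higher for the changes. The block within time and treatment called 671, 283, 492 and 124. Signs turned in 4 genes. Leaving out a replicate, AT1G47570 at 0 h ranged from -0.43 to 0.048, and the change to 1 h from -0.31 to 1.00 in AT1G57980, from -0.47 to 0.27 in ATX1 and from -0.036 to 0.074 in RR3. With CPM scaling that change was 0.16 in ATX1 and 0.26 in RR3. In RR3 it was 0.021 with no filter, 0.0040 with a replicate block, 0.076 with the block within time and treatment, 0.0063 without the 3 libraries and 0.0060 without organelle genes. Of the 150, 116 were chosen again with 5 CPM added, 120 with a minimum of 10 CPM, 140 with TMM scaling, 134 to 139 without a replicate and 141 to 147 without a time.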
